A study of Homo sapiens with 9 samples.

Results

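The E2F transcription factors and the retinoblastoma (pocket) proteins were examined as a family of 10 genes, E2F1, E2F2, E2F3, E2F4, E2F6, E2F7, E2F8, RB1, RBL1 and RBL2. Their probe sets are those that carry exactly one of these symbols, a rule that uses no measured value, although the family was picked with earlier results of these data known. All 10 were among the 19775 genes read by at least 1 probe set of a single gene, and all 10 passed the filter on signal that left 11250 genes for testing. The cells were Daudi, an established human B-cell line of Burkitt lymphoma, in which a translocation keeps MYC active. Short hairpin RNAs set the groups apart. Ctrl-sh cells had a control hairpin, Slc7a5-sh cells one that targets SLC7A5, the light chain of an importer of large neutral amino acids, and C-Myc-sh cells one that targets MYC, as the study's positive control. All groups, Ctrl-sh included, were infected and then kept in puromycin for 48 h, and each had 3 arrays, 9 in all. The labels do not give the number of hairpins per target, so an effect of a hairpin itself and of its target cannot be told apart. The labels call the arrays biological replicates without saying whether they came from separate infections. The p-values therefore set a difference between groups against the spread between these samples only.

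E2F proteins bind DNA beside the start sites of genes needed for DNA synthesis, mostly as dimers with a DP protein. E2F1, E2F2 and E2F3 are the activators and are held in check by the retinoblastoma protein RB1, which releases them when cyclin-dependent kinases phosphorylate it late in G1. E2F4 works mainly as a repressor with the RB1 relatives RBL1 (p107) and RBL2 (p130), and in resting cells it sits in the DREAM complex with RBL2 and the MuvB core. E2F6 represses without a pocket protein, in a Polycomb-type complex, and E2F7 and E2F8 are repressors that bind DNA without a DP partner and damp the genes that the activators switch on. In many cell types MYC is known to raise the genes of the activator E2Fs.

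Each probe set has 1 log2 signal on each array, and a difference of 1 is a doubling. A signal depends on the probes, so the levels of different genes are not compared. In C-Myc-sh the MYC signal was 46.9% of the control mean, and in Slc7a5-sh 78.7%. SLC7A5 stood at 80.0% in Slc7a5-sh and at 75.4% in C-Myc-sh (all limma adjusted p of 0.00414 or less). Of 10 measured B-cell markers, all 10 lay above the filter level of 5.77 in each group, against 1 to 2 of 10 T and NK, 0 to 1 of 9 myeloid and 3 to 5 of 11 epithelial and fibroblast markers. Each array averages over all its cells, so that fewer cells in a phase of the cycle and less RNA per cell cannot be told apart.

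In C-Myc-sh the activator E2F2, the repressor E2F8 and both DP genes fell, while the pocket protein genes RB1 and RBL2 rose. Of the 10 members 7 passed the test at an adjusted p under 0.05, 3 higher and 4 lower, where 54.9% of all tested genes passed. In Slc7a5-sh 5 of the 10 passed, 2 higher and 3 lower, against 25.3% of all genes. E2F2, E2F7 and E2F8 fell there as well, E2F3 and E2F6 rose, and no pocket protein gene passed. The median log2 change of the members was -0.15 with the MYC hairpin and -0.04 with the SLC7A5 hairpin, beside 0.04 and 0.03 over all tested genes. The comparisons with Ctrl-sh share their control arrays, so they are set side by side, and C-Myc-sh was also tested directly against Slc7a5-sh. In that test 5 of the 10 passed, 2 higher and 3 lower, against 49.5% of all genes. The arrays of the groups compared did not overlap for 5 members with Slc7a5-sh and 6 with C-Myc-sh, where this held for 39.8% and 62.2% of all genes, and for 5 in the direct comparison, where it held for 56.5%.

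**Figure D1:**
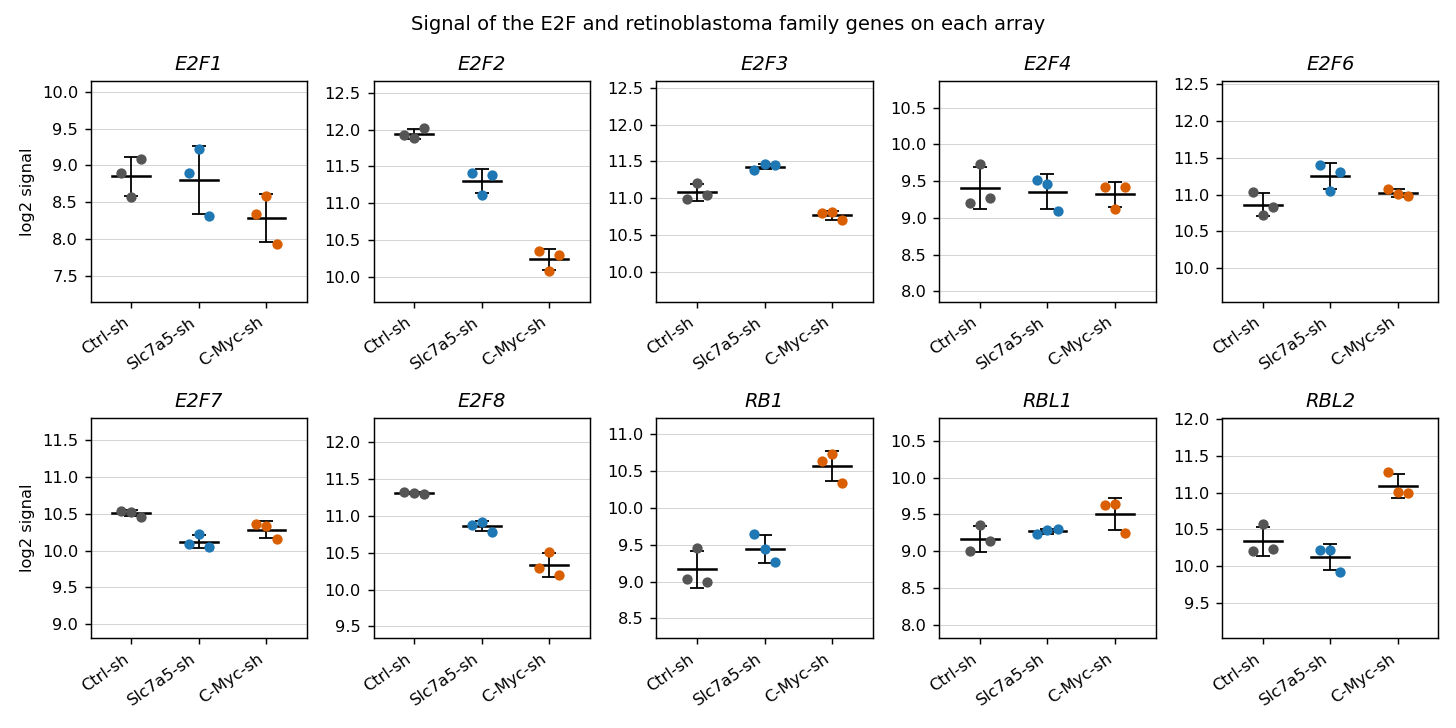
Log2 signal of each gene (vertical axis, 3 log2 units in every panel) on the 3 arrays of each group (horizontal axis), with points for arrays, bars for means and whiskers for the SD. E2F2 and E2F8 step down from Ctrl-sh to C-Myc-sh, RB1 and RBL2 stand highest in C-Myc-sh, and the 3 groups of E2F4 overlap.

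Among the activators E2F2 changed most. Its signals were 11.92, 11.89 and 12.02 in Ctrl-sh, 11.41, 11.11 and 11.38 in Slc7a5-sh, and 10.34, 10.07 and 10.29 in C-Myc-sh. The 3 groups did not overlap, with Slc7a5-sh between the others. E2F2 fell by 1.71 on the log2 scale in C-Myc-sh, to 30.6% of control (SE 0.09, limma adjusted p = 1.1e-09), and by 0.65 in Slc7a5-sh, to 63.9% (SE 0.09, limma adjusted p = 0.000182). The direct comparison set C-Myc-sh lower than Slc7a5-sh by a log2 difference of -1.06 (SE 0.09, limma adjusted p = 2.4e-07).

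E2F1, the activator that can also drive apoptosis, varied more between arrays of a group. Its signals were 8.90, 8.56 and 9.08 in Ctrl-sh, 8.90, 9.22 and 8.31 in Slc7a5-sh, and 8.34, 8.59 and 7.94 in C-Myc-sh. The highest C-Myc-sh array lay just above the lowest Ctrl-sh array. The log2 change in C-Myc-sh was -0.56 (95% confidence interval -1.06 to -0.07; limma adjusted p = 0.0531), which did not pass, and in Slc7a5-sh -0.04 (interval -0.54 to 0.46). It passed in C-Myc-sh without Ctrl-sh replicate 2 (-0.71), without Slc7a5-sh replicate 2 or 3 (-0.56) and without C-Myc-sh replicate 2 (-0.71), under quantile normalization (-0.71) and in a fit of the 6 arrays compared (-0.56). The direct difference of -0.52 did not pass (limma adjusted p = 0.0785) and passed without Slc7a5-sh replicate 3 (-0.77) or C-Myc-sh replicate 2 (-0.67), under quantile normalization (-0.66) and with the mean of both probe sets (-0.70). A second E2F1 probe set ends in _s_at, a mark of probes that can bind related transcripts. It read 8.54 ± 0.25 in Ctrl-sh and 7.77 ± 0.18 in C-Myc-sh (SD, n = 3). Its groups did not overlap, and its difference of -0.77 passed in a fit over all probe sets (SE 0.20, limma adjusted p = 0.00499), as did its direct difference of -0.89 (limma adjusted p = 0.00216).

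E2F3 moved in opposite directions under the hairpins. Its signals were 10.98, 11.21 and 11.05 in Ctrl-sh, 11.39, 11.46 and 11.45 in Slc7a5-sh, and 10.80, 10.81 and 10.70 in C-Myc-sh. All Slc7a5-sh arrays lay above and all C-Myc-sh arrays below the control arrays. E2F3 rose by 0.35 in Slc7a5-sh (SE 0.07, limma adjusted p = 0.00289) and fell by 0.31 in C-Myc-sh (SE 0.07, limma adjusted p = 0.00228). The direct log2 difference was -0.66 (SE 0.07, limma adjusted p = 3.0e-06). Both probe sets of E2F3 end in _s_at, a mark of probes that can bind related transcripts. The second differed in the same directions, by 0.33 and -0.36, and passed only in the direct comparison (-0.70, limma adjusted p = 0.00654).

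The promoters of some of these genes carry the letters to which E2F binds, and those are shown so that the sites can be set beside the values. The search used TTTCCCGC, TTTCGCGC, TTTGCCGC and TTTGGCGC on both strands of the RefSeq windows from 250 bases before to 50 after each annotated start (build GRCh38.p14). Of 35116 such windows over all genes, 3.32% held one of them, as did 3.99% of the 27305 genes with a window. Windows were found for 9 of the 10 members, all but E2F8, and those of E2F1, E2F2, E2F3 and RBL1 held a site. The last 80 bases before the start are printed on the gene's strand, with matches in capitals.
E2F1 (chr20:33686386-33686465, minus strand): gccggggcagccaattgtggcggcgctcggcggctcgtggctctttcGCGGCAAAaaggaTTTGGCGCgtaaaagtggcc
E2F2 (chr1:23531234-23531313, minus strand): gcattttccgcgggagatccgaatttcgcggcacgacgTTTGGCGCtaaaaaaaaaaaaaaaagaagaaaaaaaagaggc
E2F3 (chr6:20401799-20401878, plus strand): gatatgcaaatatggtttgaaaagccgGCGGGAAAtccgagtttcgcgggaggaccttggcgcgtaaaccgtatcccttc
RBL1 (chr20:37095998-37096077, minus strand): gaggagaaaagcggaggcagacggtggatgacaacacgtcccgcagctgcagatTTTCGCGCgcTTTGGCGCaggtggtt

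E2F1 and RBL1 each held a pair of sites, on opposite strands in E2F1 and on the same strand in RBL1, and none of the matches overlapped another. The E2F2 site, TTTGGCGC, is also present in E2F1 and in RBL1. These 4 genes did not move alike in C-Myc-sh, with log2 changes of -0.56, -1.71 and -0.31 for E2F1, E2F2 and E2F3 and 0.34 for RBL1. The windows of E2F4, E2F6, E2F7, RB1 and RBL2 held none of these letters, which says nothing of other sites or other windows. The MYC-binding E-box CACGTG, present in 7.26% of all windows, was found among the members at 1 place, before the second, downstream start of E2F3.
E2F3, second start (chr6:20403522-20403551, plus strand): tgacgtttcgcaCACGTGcgcgcaggacgc

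The repressors E2F7 and E2F8 fell in both knockdowns. E2F8 read 11.33, 11.32 and 11.29 in Ctrl-sh, 10.88, 10.92 and 10.78 in Slc7a5-sh, and 10.30, 10.51 and 10.19 in C-Myc-sh, and no group overlapped another. It fell by 0.98 in C-Myc-sh, to 50.7% of control (SE 0.08, limma adjusted p = 1.4e-07), and by 0.45 in Slc7a5-sh (SE 0.08, limma adjusted p = 0.00132). The direct difference was -0.53 (SE 0.08, limma adjusted p = 9.4e-05). E2F8, like E2F2, thus had its lowest signal with the MYC hairpin and an intermediate one with the SLC7A5 hairpin.

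E2F7 did not follow that order. It read 10.54, 10.53 and 10.46 in Ctrl-sh, 10.10, 10.22 and 10.05 in Slc7a5-sh, and 10.36, 10.34 and 10.16 in C-Myc-sh. Both knockdowns lay below the controls and overlapped each other. The fall was 0.39 in Slc7a5-sh (SE 0.09, limma adjusted p = 0.00464) and 0.22 in C-Myc-sh (SE 0.09, limma adjusted p = 0.0408). The direct difference of 0.16 did not pass (interval -0.02 to 0.35). The call in C-Myc-sh was lost without Ctrl-sh replicate 1 (-0.21), 2 (-0.21) or 3 (-0.25), without C-Myc-sh replicate 3 (-0.16), with no filter on signal (limma adjusted p = 0.0642), and with the mean of both its probe sets (-0.33).

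E2F6 rose in Slc7a5-sh. It read 11.03, 10.73 and 10.83 in Ctrl-sh, 11.40, 11.05 and 11.30 in Slc7a5-sh, and 11.08, 11.00 and 10.97 in C-Myc-sh. The Slc7a5-sh arrays lay above all controls, while C-Myc-sh overlapped both. The change was 0.39 in Slc7a5-sh (SE 0.10, limma adjusted p = 0.00852) and 0.15 in C-Myc-sh (interval -0.05 to 0.36). The direct difference of -0.23 missed the threshold (limma adjusted p = 0.0584) and passed without Ctrl-sh replicate 1 (-0.23) or Slc7a5-sh replicate 2 (-0.33), with a replicate block (limma adjusted p = 0.0242), and with the filter at the 75th percentile.

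No change was detected in E2F4, the main repressor E2F of resting cells. Its signals were 9.21, 9.73 and 9.28 in Ctrl-sh, 9.52, 9.46 and 9.09 in Slc7a5-sh, and 9.42, 9.12 and 9.41 in C-Myc-sh, with all groups overlapping. The log2 change was -0.04 in Slc7a5-sh (interval -0.39 to 0.30) and -0.08 in C-Myc-sh (interval -0.43 to 0.26). With 3 arrays a group, changes of either sign within these bounds are not excluded.

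The pocket protein genes differed mostly with the MYC hairpin. RB1 read 9.04, 9.46 and 8.999 in Ctrl-sh, 9.64, 9.44 and 9.26 in Slc7a5-sh, and 10.64, 10.73 and 10.34 in C-Myc-sh. All C-Myc-sh arrays lay above the other 6, which overlapped between their groups. RB1 rose 2.65-fold in C-Myc-sh (log2 change 1.41, SE 0.15, limma adjusted p = 1.1e-06). In Slc7a5-sh its change of 0.28 did not pass (interval -0.03 to 0.60), and the direct difference was 1.12 (SE 0.15, limma adjusted p = 1.4e-05). The second probe set of RB1, ending in _s_at, was dimmer and also higher in C-Myc-sh (limma adjusted p = 0.037). It read 7.36 ± 0.22 there against 5.34 ± 2.12 in Ctrl-sh (SD, n = 3). Of the control arrays, 1 read 2.89 and the others 6.50 and 6.64. The direct difference of this second probe set, 0.54, did not pass (SE 0.74, limma adjusted p = 0.601).

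RBL2, which gathers in resting cells, read 10.20, 10.57 and 10.23 in Ctrl-sh, 10.22, 10.22 and 9.92 in Slc7a5-sh, and 11.28, 11.00 and 10.99 in C-Myc-sh. Again all C-Myc-sh arrays lay above the other 6. RBL2 rose 1.69-fold in C-Myc-sh (log2 change 0.76, SE 0.12, limma adjusted p = 6.3e-05), and its change in Slc7a5-sh was -0.21 (interval -0.47 to 0.04). The direct difference was 0.97 (SE 0.12, limma adjusted p = 7.5e-06). A dimmer second probe set had a difference of 0.33 in C-Myc-sh that did not pass, -0.66 in Slc7a5-sh (limma adjusted p = 0.0526) and 0.99 in the direct comparison (limma adjusted p = 0.00229).

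RBL1, which is most abundant in dividing cells, read 8.999, 9.35 and 9.14 in Ctrl-sh, 9.23, 9.28 and 9.29 in Slc7a5-sh, and 9.62, 9.64 and 9.25 in C-Myc-sh. The lowest C-Myc-sh array lay below the highest control array. The change of 0.34 in C-Myc-sh passed narrowly (SE 0.13, limma adjusted p = 0.0431). It no longer passed without Ctrl-sh replicate 1 (0.26) or 3 (0.33), Slc7a5-sh replicate 1 or 2 (0.34), or C-Myc-sh replicate 1 (0.28) or 2 (0.27), nor under quantile normalization (0.22), without an eBayes trend, with no filter or in a fit of the 6 arrays compared. Of the 3 further RBL1 probe sets, 2 differed by 0.02 and -0.17, and the other lay below the filter level and was not tested (-3.26). RBL1 in Slc7a5-sh was at 0.11 (interval -0.18 to 0.40).

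**Figure D2:**
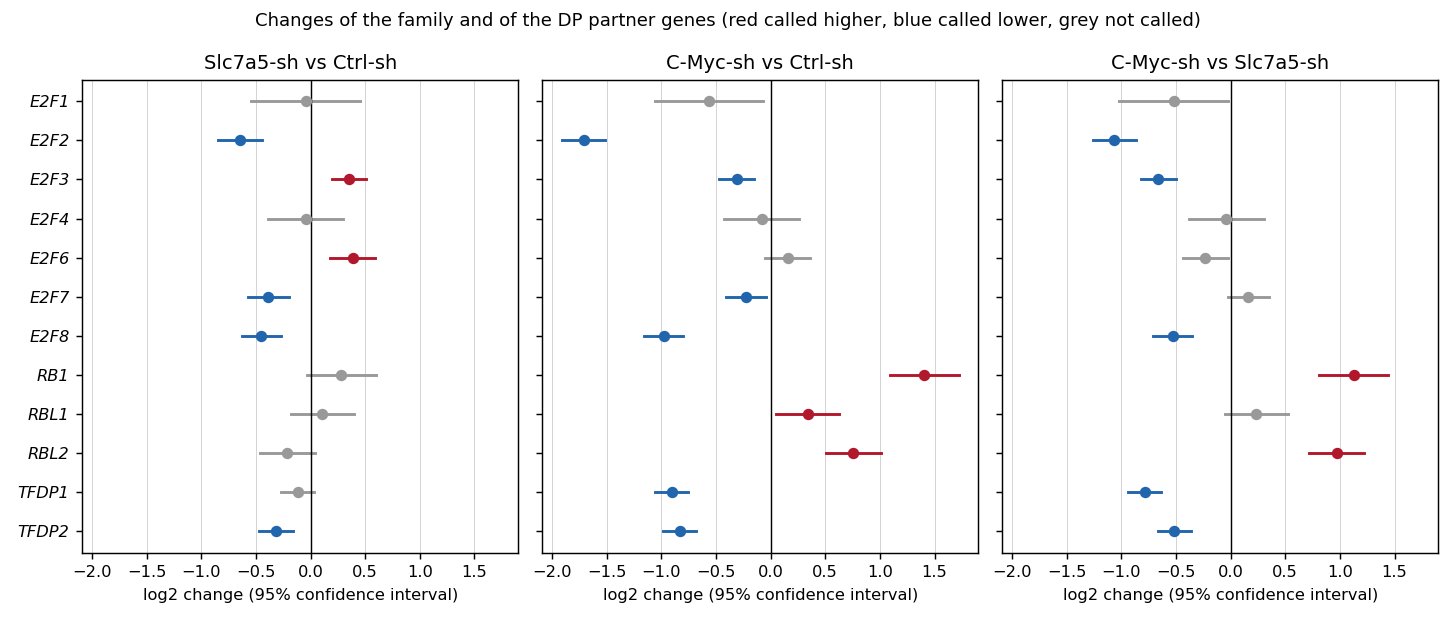
Log2 change (horizontal axis) with its 95% confidence interval for each member and the DP genes TFDP1 and TFDP2 (vertical axis) in the 3 comparisons, from limma, with red for called higher, blue for called lower and grey for not called. RB1 and RBL2 lie to the right in both comparisons of C-Myc-sh, and E2F3 lies to the right in Slc7a5-sh and to the left in C-Myc-sh.

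Over all 21 probe sets of the family, 8 members had more than 1. Of the 11 further probe sets, 10 lay above the filter level and were fitted with all 27307 probe sets above it, an alternative chosen after the data were seen. All 3 probe sets of E2F2 fell in C-Myc-sh, by 1.71, 1.73 and 1.90. In Slc7a5-sh the further ones differed by -0.49 and -0.41 and did not pass. In this larger fit the main probe sets of E2F7 and RBL1 did not pass in C-Myc-sh.

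**Figure D3:**
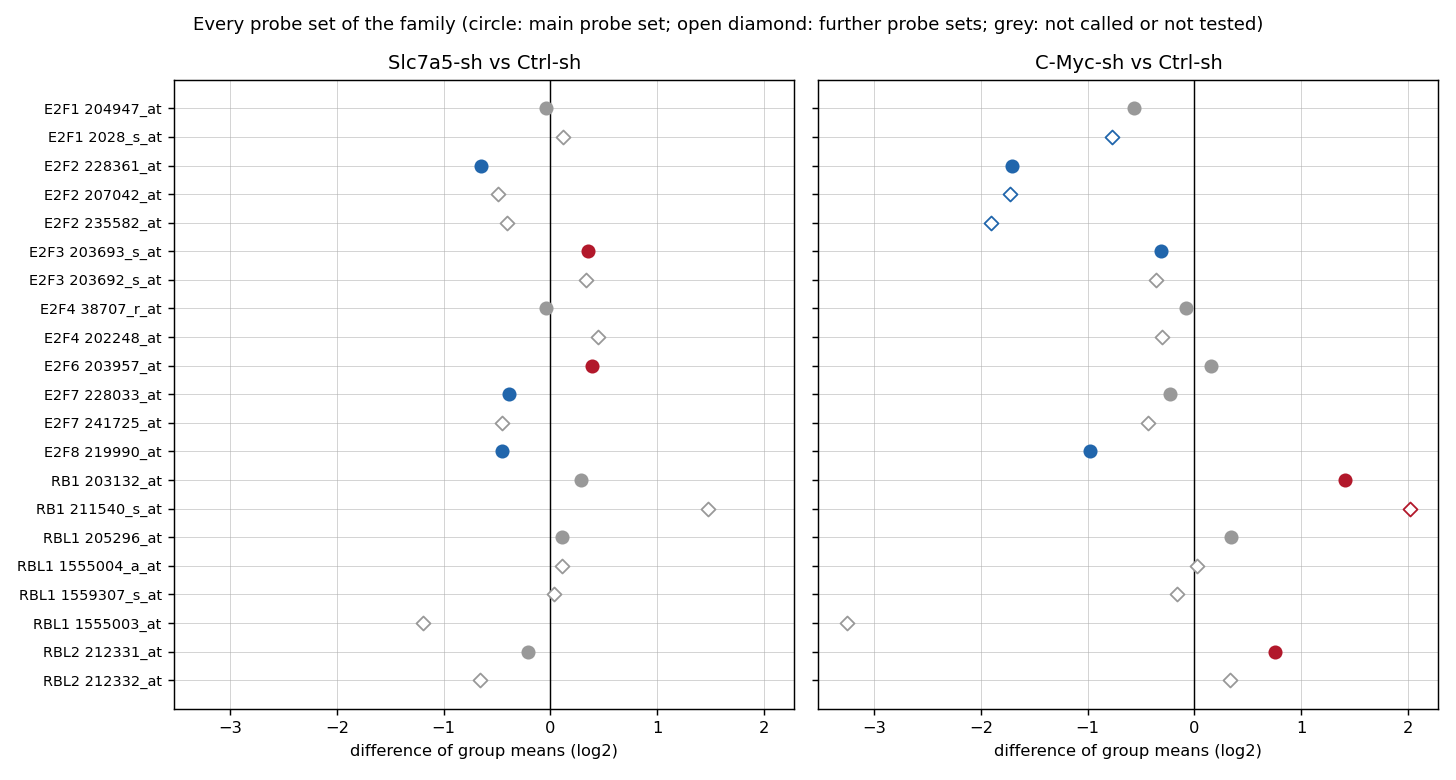
Difference of group means on the log2 scale (horizontal axis) for each of the 21 probe sets of the family (vertical axis), for each knockdown against Ctrl-sh. Filled circles are the main probe sets, open diamonds the further ones, and red or blue marks those called in the fit over 27307 probe sets. The 3 probe sets of E2F2 lie together at the left in C-Myc-sh, and those of RBL1 fall on both sides of 0.

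The transcripts of TFDP1 and TFDP2, which encode the DP partners that most E2Fs need to bind DNA, fell in C-Myc-sh. TFDP1 read 14.31, 14.42 and 14.16 in Ctrl-sh, 14.12, 14.16 and 14.27 in Slc7a5-sh, and 13.29, 13.39 and 13.50 in C-Myc-sh. It fell by 0.91 in C-Myc-sh, to 53.4% of control (SE 0.07, limma adjusted p = 5.6e-08), and its change of -0.12 in Slc7a5-sh did not pass. TFDP2 read 12.43, 12.32 and 12.21 in Ctrl-sh, 12.01, 11.93 and 12.07 in Slc7a5-sh, and 11.37, 11.57 and 11.52 in C-Myc-sh. Its groups did not overlap, with falls of 0.83 in C-Myc-sh (SE 0.07, limma adjusted p = 1.5e-07) and 0.32 in Slc7a5-sh (SE 0.07, limma adjusted p = 0.00478). The window before the start of TFDP1 also held an E2F site, 120 bases upstream.

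Most of the cyclins and kinases that phosphorylate pocket proteins were lower in both knockdowns. Of 7 tested cyclins and kinases, 7 fell in Slc7a5-sh and 6 fell in C-Myc-sh, with median log2 changes of -0.35 and -0.74, where 11.0% and 26.2% of all tested genes fell. CCND3, the D-type cyclin of many B cells, fell by 1.70 in C-Myc-sh and 0.86 in Slc7a5-sh, and its kinase partner CDK4 by 1.11 and 0.35 (SE 0.06 each). With the mean of all its probe sets the fall of CCND3 in C-Myc-sh was 0.64. CDK6 fell by 0.53 in Slc7a5-sh. In C-Myc-sh it was at -0.13 and did not pass, and directly it was higher than in Slc7a5-sh (0.40, limma adjusted p = 0.000304). Among 4 tested inhibitors of these kinases, 2 rose and 1 fell in C-Myc-sh, and 2 rose and 0 fell in Slc7a5-sh, where 14.3% of all genes rose with Slc7a5-sh and 28.7% with C-Myc-sh. CDKN1B (p27) rose from 9.07 ± 0.08 in Ctrl-sh to 10.04 ± 0.13 in Slc7a5-sh and to 11.06 ± 0.11 in C-Myc-sh (SD, n = 3; log2 changes 0.97 and 1.99, limma adjusted p = 1.4e-05 and 4.4e-10). CDKN1A (p21) rose by 0.64 in C-Myc-sh and 0.74 in Slc7a5-sh. CDKN2A fell by 0.50 in C-Myc-sh (SE 0.08, limma adjusted p = 0.000135), and did not pass with the mean of all its probe sets (-0.24). CDKN2D, at -0.47 in C-Myc-sh and -0.53 in Slc7a5-sh, did not pass, except in C-Myc-sh without its replicate 2 (-0.71). Without _s_at and _x_at probe sets 2 inhibitors were tested, of which 1 rose and 1 fell in each knockdown.

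Genes that E2F is known to switch on for DNA synthesis fell in the same arrays. Of 32 tested G1/S targets, 29 fell and 1 rose in C-Myc-sh (median -0.74), and 16 fell and 2 rose in Slc7a5-sh (median -0.23). Of all tested genes 26.2% fell and 28.7% rose in C-Myc-sh, and 11.0% fell and 14.3% rose in Slc7a5-sh, and these shares hold for each list that follows. Without the probe sets ending in _s_at or _x_at, 17 of the 19 targets still tested fell in C-Myc-sh. UHRF1, which couples DNA methylation to replication, fell by 1.69 and 0.60 (SE 0.05), and RFC3, a subunit of the clamp loader, by 1.65 and 0.55 (SE 0.06). With the mean of all its probe sets RFC3 was at -0.41 in C-Myc-sh and 0.58 in Slc7a5-sh, and neither passed. GINS2 of the replicative helicase fell by 1.55 and RRM2, which makes deoxynucleotides, by 1.19 in C-Myc-sh, and GINS1 by 0.55 in Slc7a5-sh. Without _s_at and _x_at probe sets GINS2 was at -0.55 and did not pass, and with the mean of all its probe sets it was at -1.03 and passed. The exceptions, picked out after their values were seen, were CASP8AP2, which rose in C-Myc-sh (0.26), and CHEK1 (0.39) and UNG (0.31), which rose in Slc7a5-sh. No target rose in C-Myc-sh, and 1 in Slc7a5-sh, with the mean of all probe sets or without _s_at and _x_at probe sets. Of the 31 G1/S targets with a promoter window, 22 held an E2F site, in a list that was written from known E2F targets. Over all genes with a window the share was 3.99%, and of 18 genes of G2 and mitosis with a window 2 held a site.

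Genes of G2 and mitosis, which the DREAM complex represses in resting cells, differed between the knockdowns. In C-Myc-sh 23 of 24 tested genes fell (median -0.70), among them the survivin gene BIRC5 (-1.04), the cyclin CCNB2 (-0.97), the proliferation marker MKI67 (-1.42) and the checkpoint kinase BUB1B (-1.24). CCNB2 did not pass with the mean of all its probe sets (-0.48). Without the _s_at and _x_at probe sets 15 of 18 fell. In Slc7a5-sh 6 rose and 3 fell (median 0.08), with CENPF of the kinetochore at 0.49, CDCA8 at 0.49 and the phosphatase CDC25C at 0.72. In the direct comparison all 24 were lower in C-Myc-sh (median -0.84), where 25.1% of all genes were lower. The count that fell in Slc7a5-sh was 1 without Ctrl-sh replicate 3, Slc7a5-sh replicate 1 or Slc7a5-sh replicate 2, and 0 with eBayes without trend. Without the _s_at and _x_at probe sets 1 of 18 rose there, and CENPF did not pass (0.50, limma adjusted p = 0.563). CDC25C was at 0.15 with the mean of all its probe sets and did not pass.

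**Figure D4:**
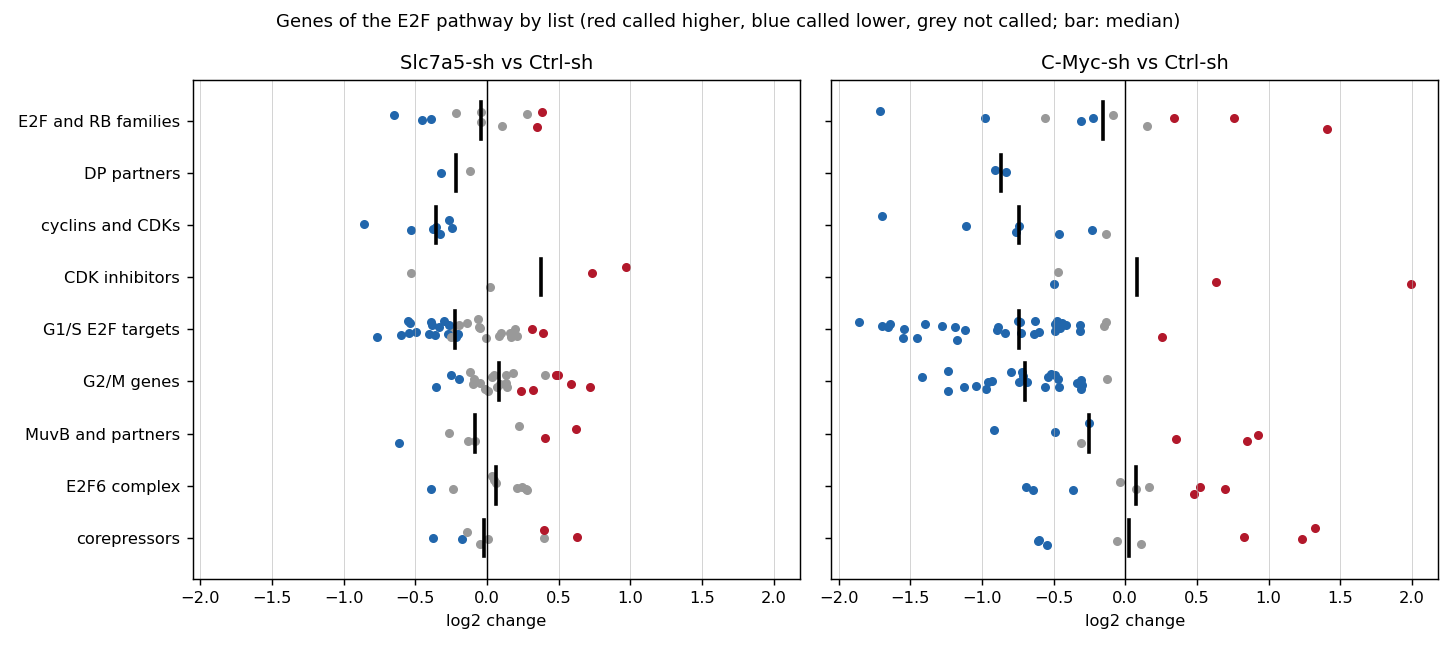
Log2 change (horizontal axis) of every tested gene in 9 lists of the E2F pathway (vertical axis) for each knockdown against Ctrl-sh, with points for genes, red for called higher, blue for called lower, grey for not called and a black bar for the median. The G1/S targets and G2/M genes have medians of -0.74 and -0.70 in C-Myc-sh, and -0.23 and 0.08 in Slc7a5-sh.

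Of the partners of the repressor arm, some rose and some fell, with counts of a few genes beside the shares of all genes given above. Of 7 tested genes of MuvB and its partners, 3 rose and 3 fell in C-Myc-sh, and 2 rose and 1 fell in Slc7a5-sh. MYBL2 (B-Myb), which takes the pocket protein's place on MuvB in cycling cells, fell by 0.91 in C-Myc-sh and 0.62 in Slc7a5-sh (SE 0.06, limma adjusted p = 1.8e-08 and 1.8e-05). The MuvB subunits LIN37 and LIN52 rose by 0.85 and 0.92 in C-Myc-sh, and DYRK1A, the kinase that promotes DREAM assembly through LIN52, by 0.35 in C-Myc-sh and 0.40 in Slc7a5-sh. LIN52 was at 0.62 in Slc7a5-sh and lost its call there without Ctrl-sh replicate 2 (0.43) or Slc7a5-sh replicate 1 (0.49). With the mean of all probe sets LIN37 (0.99) and DYRK1A (0.29) did not pass in C-Myc-sh, and DYRK1A turned to -0.15 in Slc7a5-sh. In C-Myc-sh 1 of 6 tested MuvB genes rose under that setting, and without _s_at and _x_at probe sets 1 of 4 rose and 1 fell.

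Of 9 tested partners of E2F6, 3 rose and 3 fell in C-Myc-sh, and 0 rose and 1 fell in Slc7a5-sh, the MYC partner MAX (-0.39, limma adjusted p = 0.00142). WDR5 fell by 0.69 in C-Myc-sh and RING1 rose by 0.48. Without _s_at and _x_at probe sets WDR5 was at -0.18 and did not pass, and 1 of 8 rose and 1 fell. When each gene was averaged over its probe sets, 1 of 9 rose in C-Myc-sh and 0 fell in Slc7a5-sh. In Slc7a5-sh 1 rose without Ctrl-sh replicate 2, 2 rose without Slc7a5-sh replicate 3, and 2 fell without Slc7a5-sh replicate 2. Of 8 tested corepressors that pocket proteins recruit, 3 rose and 3 fell in C-Myc-sh, and 2 rose and 2 fell in Slc7a5-sh. ARID4B and KDM5A, both known as RB-binding proteins, rose by 1.32 and 1.24 in C-Myc-sh, and the histone deacetylase HDAC2 fell by 0.61. With the mean of all its probe sets KDM5A was at 0.57 in C-Myc-sh and still passed. In Slc7a5-sh KDM5A and ARID4B were at 0.63 and 0.40, and neither passed with the mean of all probe sets (0.17 and 0.37), so that 0 corepressors rose there. MAX did not pass there either (-0.31).

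Genes whose profile over the 9 arrays was most like that of a member were ranked by Pearson's r over the 11240 other tested genes. These values describe the profiles only, since the arrays form 3 groups and every gene with the same order of groups scores high. For E2F2 they were TNFRSF21 (r = 0.997) and SORBS2 (0.995), both lowest in C-Myc-sh and intermediate in Slc7a5-sh. For E2F3 they were CYBB (0.979) and SURF2 (0.977), highest in Slc7a5-sh. RB1 was closest to COG3 (0.991) and HSPBAP1 (0.987), and RBL2 to TRAF4 (0.985) and MIGA1 (0.985), all highest in C-Myc-sh.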

How the data were processed

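Total RNA of Daudi cells was labelled from the 3' end and hybridised to short-oligonucleotide arrays, 3 per group, per the labels' protocols. The authors deposited log2 signals, 1 per probe set and array. The submitters' processing notes name MAS5. After conversion to linear scale the mean trimmed by 2% at each end was 497 for every array. The deposited values thus carry a scaling to a common mean, and a change in total RNA per cell cannot be read. No further normalization was applied. Array medians were 6.05 to 6.26.

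Of 54613 probe sets, 41091 had exactly 1 gene symbol in the platform annotation, and 41037 of these matched a RefSeq gene by Entrez ID. A gene was read by its probe set with the highest mean, and was tested if that mean reached the median of all probe-set means (5.77). One limma fit (limma 3.58.1, R 4.3.3; lmFit with 3 group means, eBayes with trend) gave 3 two-sided comparisons, Benjamini-Hochberg adjusted over 11250 genes, with a call at an adjusted p under 0.05. The fit was also run on simulated arrays of independent values in which few genes changed, unlike these data. That run checks the code, not the scaling or the choice of probe sets. The number of arrays limits precision.

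Named are the members, the targeted and DP genes, and, from each pathway list, genes among the 4 with the smallest p in C-Myc-sh and the 3 in Slc7a5-sh. Members, lists and motifs were chosen with earlier results of these data known. The alternatives were quantile normalization, eBayes without trend, no filter or one at the 75th percentile, only the 6 arrays compared, the mean of all probe sets, no _s_at or _x_at probe sets, low values raised to the filter level, a replicate block, and leaving out each array.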

Additional observations from a re-analysis of the deposited data

How the results depend on the processing

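The number of members called was 4 to 5 in Slc7a5-sh, 5 to 8 in C-Myc-sh and 4 to 6 in the direct comparison over 18 alternatives. Under these the calls of E2F2 and E2F8 held in the 3 comparisons, and those of RB1 and RBL2 held in C-Myc-sh, though further probe sets of E2F2 (in Slc7a5-sh) and RBL2 (in C-Myc-sh) did not pass, and E2F3 could not be tested without _s_at and _x_at probe sets. When each gene was averaged over its probe sets, dim ones included, 1581 genes were called in Slc7a5-sh in place of 2843. There E2F3 (0.34) and E2F7 (-0.42) did not pass in Slc7a5-sh, RBL2 passed (-0.43), E2F1 passed in C-Myc-sh (-0.67), RB1 did not pass in the direct comparison (0.83), TFDP1 passed in Slc7a5-sh (-0.32), and E2F1 (0.039), E2F4 (0.20), RBL1 (-0.24), RFC3 (0.58), DYRK1A (-0.15) and RYBP (-0.095) turned in Slc7a5-sh, as did RBL1 in C-Myc-sh (-0.76) and directly (-0.53). Without _s_at and _x_at probe sets L3MBTL2 turned from 0.28 to -0.0046 and RYBP from 0.21 to -0.35 in Slc7a5-sh. Neither had passed there. YAF2, which had passed as higher in C-Myc-sh (0.70, limma adjusted p = 0.000128), turned to -0.13 and did not pass. The further probe sets turned E2F1 (0.12) and E2F4 (0.44) in Slc7a5-sh and turned RBL1 in C-Myc-sh (-0.17) and directly (-0.083 and -0.20). The cause of these changes was not tested. Leaving out 1 array gave E2F1 between -0.25 and 0.21 in Slc7a5-sh, and E2F4 between -0.14 and 0.12 in Slc7a5-sh, between -0.18 and 0.080 in C-Myc-sh and -0.17 and 0.060 directly, with no call. Leaving out 1 array gave 2253 to 2811 called genes in Slc7a5-sh, 5702 to 6305 in C-Myc-sh and 5005 to 5521 directly. Same-numbered arrays of different groups did not deviate together (correlations -0.02 to 0.02). A replicate block left 5 members called for Slc7a5-sh, 7 for C-Myc-sh and 6 directly, and 2775, 6147 and 5526 genes called. Quantile normalization moved the median change of all genes by less than 0.1.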
